A study of Homo sapiens with 24 samples.

Results

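The serine and one-carbon synthesis enzymes described here are 10 genes, PHGDH, PSAT1, PSPH, SHMT1, SHMT2, MTHFD1, MTHFD2, MTHFD1L, ALDH1L2 and ASNS. They were chosen by name, with earlier results of these data known, so counts of members against all probes are descriptions. Every probe that carries one of their symbols in the array design was taken, which gave 13 of the 34127 probes. SHMT1 had 2 probes, MTHFD1L had 3 and each other gene had 1. Each of the 13 gave a signal well above background on each of the 24 arrays and none was saturated, so all were among the 23827 probes tested.

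A549 and H1975, both established lines from human lung adenocarcinoma, were cultured with 0.75 mg/ml of Pirfenidone, an anti-fibrotic drug, or with the same volume of PBS. RNA was taken after 6 h or 24 h and measured on Agilent one-colour arrays, 3 arrays for each of the 8 groups of line, treatment and time. The labels do not say that the arrays of a group came from separate cultures, so the p-values measure only the spread between these arrays, which may be technical. No arm without PBS and no second dose was analysed here, and a level is an average over the cells of a dish, in which fewer cells with a transcript and less transcript per cell cannot be told apart.

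PHGDH, PSAT1 and PSPH act one after another to make serine from a glycolytic intermediate. SHMT1 in the cytosol and SHMT2 in mitochondria split serine into glycine and a carbon unit carried by folate, which MTHFD1 in the cytosol and MTHFD2, MTHFD1L and ALDH1L2 in mitochondria interconvert for purine, thymidylate and methionine synthesis. ASNS makes asparagine from aspartate and glutamine. Several of these genes are known targets of ATF4, a transcription factor whose translation rises when amino acids are short or the endoplasmic reticulum is stressed, and many tumour cells depend on the pathway for growth.

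Promoters of 3 of the 4 genes called under Pirfenidone (ALDH1L2 had no window given) and of MTHFD1L are shown first, because ATF4 is known to bind C/EBP-ATF elements near the start of ASNS. RefSeq promoter windows on GRCh38.p14, from 250 bases before to 50 bases after a start, were given for 7 of the 10 genes, 11 windows in all. The core TGATGNAA, searched on both strands and here in capitals, was found in windows of 2 genes, ASNS and MTHFD1L, which is 2 of the 7, against 4.46% of all genes with a window (3.62% of all 35116 windows). Only these 2 of the 7 genes had several windows, so the shares by gene are not like for like. The MTHFD1L windows with the core overlap and hold it at the same site. In ASNS it began 68 bases before the second listed start. In MTHFD1L it began 90 bases before the second start, and there only the core with 10 bases on each side is shown. The windows of PHGDH and PSAT1 did not hold these letters.
ASNS, second start, chr7:97872409-97872658, minus strand: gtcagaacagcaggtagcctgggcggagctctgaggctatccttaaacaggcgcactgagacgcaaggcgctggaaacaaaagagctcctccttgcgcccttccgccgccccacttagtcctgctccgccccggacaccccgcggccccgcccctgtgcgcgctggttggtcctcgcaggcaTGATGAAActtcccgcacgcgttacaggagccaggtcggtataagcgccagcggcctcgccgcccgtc
PHGDH, chr1:119711684-119711933, plus strand: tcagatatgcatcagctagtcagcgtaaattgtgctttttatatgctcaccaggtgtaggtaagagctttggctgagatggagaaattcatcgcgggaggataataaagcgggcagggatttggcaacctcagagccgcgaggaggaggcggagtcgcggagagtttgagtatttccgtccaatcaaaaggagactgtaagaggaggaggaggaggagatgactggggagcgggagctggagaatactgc
PSAT1, chr9:78296875-78297124, plus strand: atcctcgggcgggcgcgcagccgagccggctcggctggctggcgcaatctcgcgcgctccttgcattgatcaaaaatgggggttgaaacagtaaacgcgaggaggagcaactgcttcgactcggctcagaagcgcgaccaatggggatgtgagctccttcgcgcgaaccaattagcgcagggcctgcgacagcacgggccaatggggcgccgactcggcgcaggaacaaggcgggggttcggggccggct
MTHFD1L, second start, chr6:150866347-150866374, plus strand: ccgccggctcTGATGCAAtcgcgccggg
The antioxidant response element core TGACNNNGC, present in windows of 16.1% of all genes (13.3% of windows), was found in MTHFD2 alone among the 7 genes, and the E-box CACGTG, present in those of 8.77% (7.26% of windows), in MTHFD1 and MTHFD1L. A match of letters is a description and not a binding site.

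Levels are the log2 processed signal, less the array's 75th percentile, in the order of replicates 1 to 3. Differences are Pirfenidone minus PBS on the same log2 scale, with the standard error (SE) of 1 limma model over the 8 groups of 3 arrays. A probe was called when its Benjamini-Hochberg adjusted p was at most 0.05 and its difference was at least 1, which is 2-fold. The dates in the array file names sort the arrays into 4 runs, and each Pirfenidone array could be set against the PBS array of its own line, time and run. Treatment and time fixed the place of an array on its slide, so place and treatment cannot be told apart.

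Before the results, 1 pair of arrays stood apart. In A549 at 24 h, the PBS array of replicate 3 had the highest PHGDH, PSAT1, PSPH, MTHFD2, ALDH1L2 and ASNS levels of the 3 PBS arrays, and its Pirfenidone partner had the lowest of the 3 Pirfenidone arrays for all of these but MTHFD2. Values that use the A549 arrays at 24 h are therefore given with and without this pair where leaving it out moved them by much. The model takes 1 spread per probe from all groups, and the SE of PHGDH fell from 0.22 to 0.14 without the pair, so calls in the other groups are touched as well. The pair is set apart by the levels of these same genes. Smaller p-values of theirs without it, as in A549 at 6 h, are therefore no added support.

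Pirfenidone raised 4 of the 10 genes at least 2-fold in H1975 cells after 24 h: PHGDH, PSAT1, ALDH1L2 and ASNS. PHGDH and ASNS had already risen past this limit at 6 h. In A549 cells at 6 h the same enzymes were higher on all 3 Pirfenidone arrays by 0.78 to 1.19 log2 units, none of which was called, and at 24 h no member was called. SHMT1 was lower in H1975 at 24 h, short of the 2-fold limit, and SHMT2 and MTHFD1L differed little in any of the 4 comparisons. Called members were 4 of 13 probes in H1975 at 24 h, against 1.89% of all probes tested (called higher, 0.89%), and 2 of 13 at 6 h, against 0.491% (called higher, 0.399%). In A549 they were 0 of 13 at 6 h, against 0.176%, and 0 of 13 at 24 h, against 0.0126%. By the adjusted p alone, without the fold limit, 8 of 13 passed in H1975 at 24 h (6.26% of all probes), 3 in H1975 at 6 h (1.41%) and 3 in A549 at 6 h (0.34%). At an unadjusted p under 0.05, 6 members passed in A549 at 6 h, where 6.01% of all probes did, and 0 passed in A549 at 24 h, where 0.953% did.

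**Figure D1:**
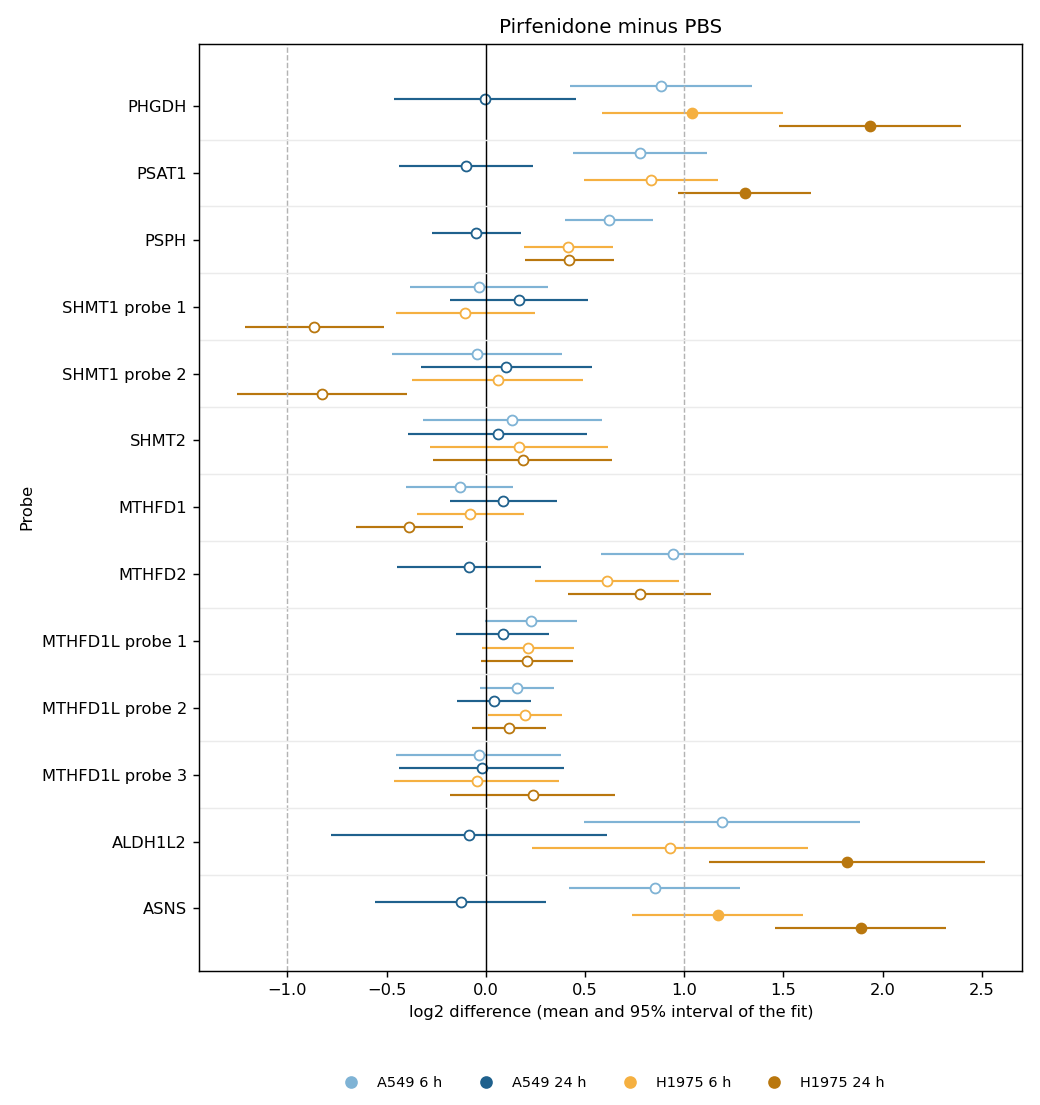
Log2 difference between Pirfenidone and PBS for the 13 probes (vertical axis) in the 4 comparisons (colours), with the 95% interval of the limma model over 3 arrays per group. Filled points passed an adjusted p of 0.05 and the 2-fold limit (dashed lines), and these are the PHGDH, PSAT1, ALDH1L2 and ASNS points of H1975 at 24 h and the PHGDH and ASNS points of H1975 at 6 h.

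PHGDH, which catalyses the first step of serine synthesis, was measured at chr1:120285529-120285588 (hg19). Its level in H1975 at 24 h was 0.99, 1.02 and 1.29 with PBS and 2.88, 2.89 and 3.34 with Pirfenidone. The groups were far apart, with a gap wider than the range within either. The difference was 1.93 (SE 0.22), a 3.82-fold rise with a limma adjusted p of 9.02e-05. At 6 h the H1975 levels were 0.92, 0.86 and 0.71 with PBS and 1.91, 1.70 and 1.999 with Pirfenidone. They did not overlap, and the difference was 1.04 (SE 0.22, limma adjusted p = 0.0211). That call was the least firm of those in H1975. It was lost when any of 5 of the 6 arrays compared was left out, all but Pirfenidone replicate 2, with differences between 0.98 and 1.09 and limma adjusted p up to 0.0984, and also with normexp background correction or a fit of only the arrays compared.

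In A549 at 6 h PHGDH was 1.41, 1.21 and 1.03 with PBS and 2.13, 2.15 and 2.02 with Pirfenidone. Every Pirfenidone array lay above every PBS array, by 0.88 (SE 0.22) on average, with a limma adjusted p of 0.121. Without the replicate 3 pair of A549 at 24 h, which is in neither of these groups, the same difference had a limma adjusted p of 0.00525. At 24 h the levels overlapped, 1.94, 1.81 and 2.76 with PBS against 2.24, 2.54 and 1.73 with Pirfenidone. The difference was -0.0034 (SE 0.22) with the pair and 0.51 (SE 0.17, limma adjusted p = 0.383) without it.

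PSAT1, the aminotransferase of the second step (chr9:80944778-80944837, hg19), followed the same course with a narrower range. After 24 h in H1975 it was 3.40, 3.52 and 3.20 with PBS and 4.55, 4.61 and 4.87 with Pirfenidone. The groups were separated by about 1 log2 unit and the rise was 1.30 (SE 0.16, limma adjusted p = 0.000222), or 2.47-fold. At 6 h H1975 levels were 3.44, 3.71 and 3.65 against 4.46, 4.37 and 4.46, and the difference of 0.83 (SE 0.16) had a limma adjusted p of 0.0119 without reaching 2-fold. In A549 at 6 h the corresponding levels were 4.64, 4.25 and 4.29 against 5.27, 5.13 and 5.10, again without overlap. The difference there was 0.78 (SE 0.16, limma adjusted p = 0.0416). At 24 h A549 PSAT1 was 4.83, 4.50 and 5.26 with PBS and 4.92, 4.75 and 4.62 with Pirfenidone, within the spread of the PBS arrays, and the difference was -0.10 (SE 0.16), or 0.17 (SE 0.16) without the replicate 3 pair.

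PSPH, the phosphatase that releases serine (chr7:56078799-56078858, hg19), showed the smallest differences of the 3 serine synthesis enzymes. At 6 h its difference was 0.62 (SE 0.11, limma adjusted p = 0.0114) for A549 and 0.42 (SE 0.11, limma adjusted p = 0.0633) for H1975, and after 24 h the H1975 value was 0.42 (SE 0.11, limma adjusted p = 0.0269). None of these reached 2-fold, although Pirfenidone arrays did not overlap PBS arrays in any of these 3 comparisons. In H1975 after 24 h, for example, PSPH was 2.92, 2.81 and 2.91 with PBS and 3.23, 3.26 and 3.41 with Pirfenidone. In A549 at 24 h the difference was -0.05 (SE 0.11), or 0.11 (SE 0.12) without the replicate 3 pair.

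**Figure D2:**
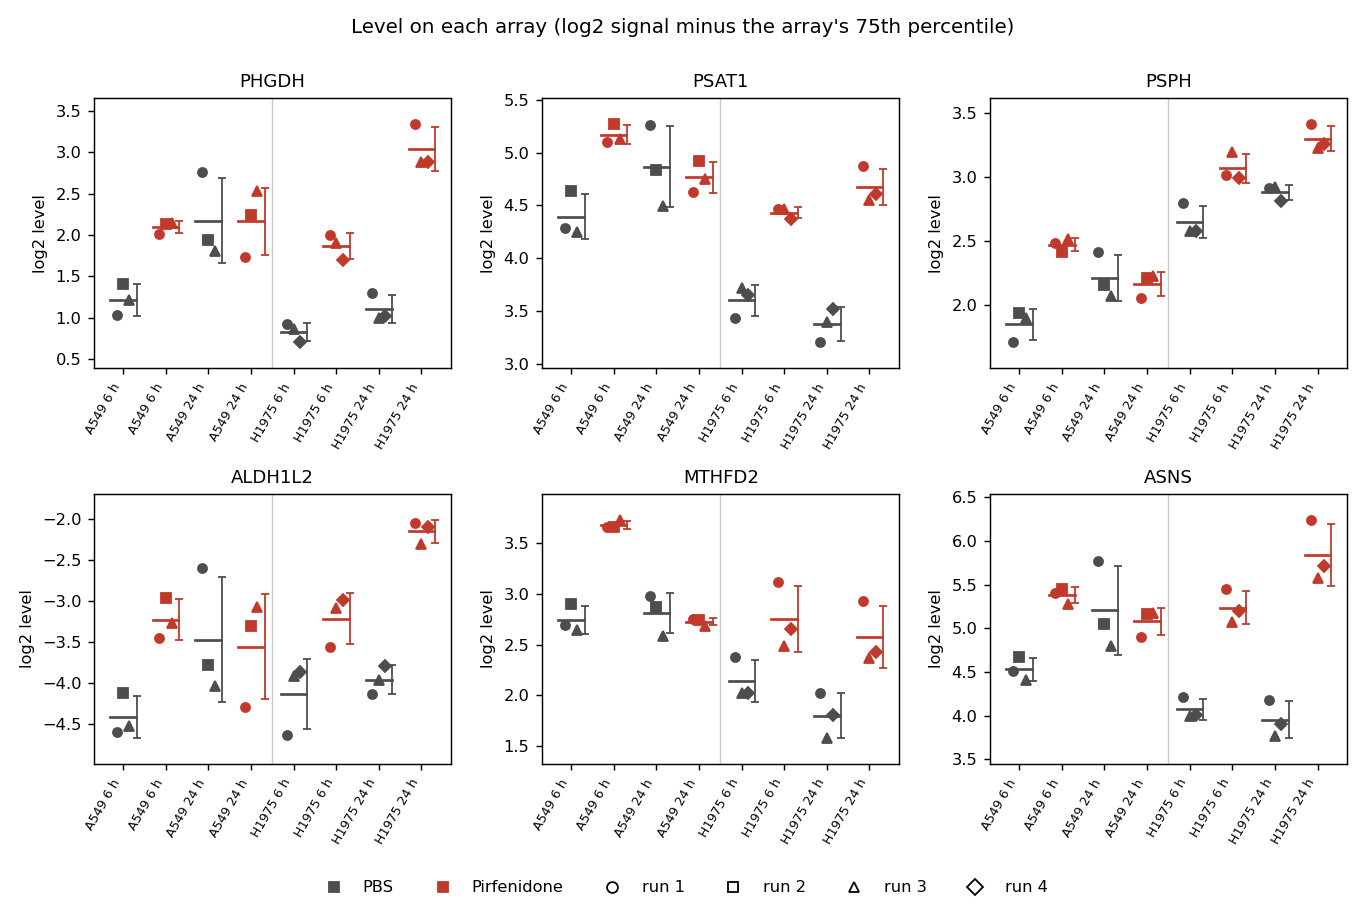
Log2 level of PHGDH, PSAT1, PSPH, ALDH1L2, MTHFD2 and ASNS on each of the 24 arrays, by line and time (horizontal axis) and treatment (colour), with the run as the symbol. Horizontal bars are means of 3 arrays and vertical bars are SD. In H1975 every Pirfenidone array lies above every PBS array of its time for all 6 genes, while in A549 at 24 h the run 1 pair runs the other way, with PHGDH at 2.76 on the PBS array and 1.73 on the Pirfenidone array.

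The serine hydroxymethyltransferases did not follow the synthesis enzymes. SHMT1 was read by a probe at chr17:18231526-18231585 (probe 1) and another at chr17:18236513-18236572 (probe 2, both hg19). With H1975 cells at 24 h, probe 1 gave 0.20, 0.24 and 0.30 with PBS and -0.45, -0.46 and -0.95 with Pirfenidone, and probe 2 gave -0.66, -0.62 and -0.58 with PBS and -1.16, -1.25 and -1.94 with Pirfenidone. On both probes all Pirfenidone arrays lay below all PBS arrays, with replicate 3 the lowest. The differences were -0.86 (SE 0.17, limma adjusted p = 0.00743) and -0.83 (SE 0.20, limma adjusted p = 0.0242), past the adjusted p but not the 2-fold limit. In the other 3 comparisons the differences of the 2 probes lay between -0.10 and 0.17, with overlapping arrays in each. Without the replicate 3 pair those of A549 at 24 h were -0.08 and -0.20. The array design describes 2 further probes as SHMT1 without its symbol, ENST00000618902 and ENST00000395682, which are no members and were picked after the member values were seen. They differed by -0.69 (SE 0.56) and -0.53 (SE 0.33) in H1975 at 24 h, with limma adjusted p of 0.533 and 0.383.

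SHMT2, the mitochondrial form (chr12:57628345-57628404, hg19), was 3.84, 3.76 and 4.35 with PBS and 3.98, 4.03 and 4.50 with Pirfenidone in H1975 at 24 h. These arrays overlapped, and the 4 differences were 0.13 (6 h) and 0.06 (24 h) for A549 and 0.17 and 0.19 for H1975, each with an SE of 0.21. Within runs SHMT2 was higher with Pirfenidone throughout, by small amounts, except in run 2 of A549 at 24 h (-0.05). In H1975 at 24 h it differed by 0.15, 0.15 and 0.27 in runs 1, 3 and 4. The highest upper limit of the 95% intervals was 0.64, so a rise of 2-fold lay outside all 4. MTHFD1, the 3-activity cytosolic enzyme (chr14:64926496-64926555, hg19), was lower on every Pirfenidone array than on every PBS array at 6 h in A549 and at each time in H1975, by small amounts. In H1975 at 24 h it was 4.34, 4.41 and 4.17 with PBS and 4.07, 4.07 and 3.62 with Pirfenidone, a difference of -0.38 (SE 0.13, limma adjusted p = 0.0818) that was -0.23 without Pirfenidone replicate 3. The differences at 6 h were -0.13 in A549 and -0.08 in H1975, each with an SE of 0.13, and in A549 at 24 h the difference was 0.09, or -0.12 without the replicate 3 pair.

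**Figure D3:**
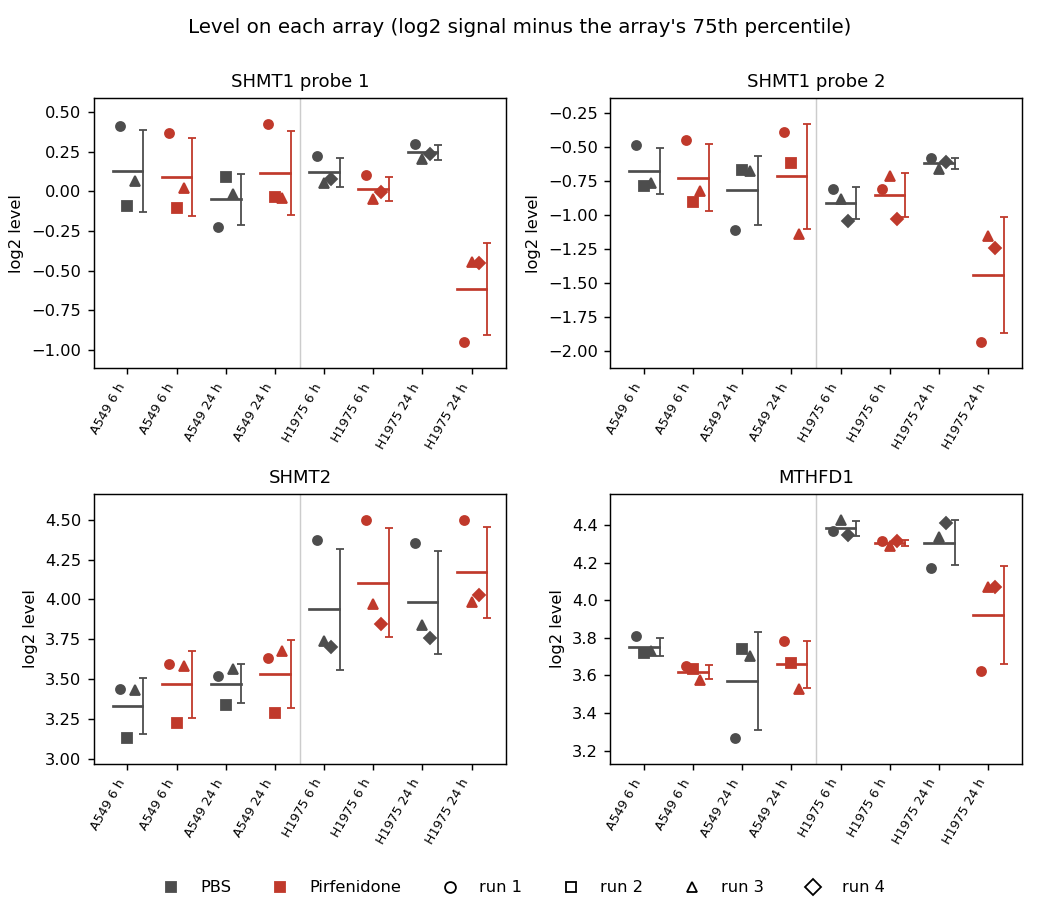
Log2 level of the 2 SHMT1 probes, SHMT2 and MTHFD1 on each array, with groups, colours, symbols and bars as in the plot of the 6 genes above. The lowest SHMT1 levels on both probes are the 3 Pirfenidone arrays of H1975 at 24 h, and SHMT2 arrays overlap in every line and time.

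Of the mitochondrial folate enzymes, ALDH1L2, which oxidises formyl-folate to carbon dioxide, moved most. Its probe (chr12:105420340-105420399, hg19) was the dimmest of the 13, yet well above background on every array. ALDH1L2 in H1975 at 24 h was -3.96, -3.79 and -4.14 with PBS and -2.30, -2.09 and -2.04 with Pirfenidone. The gap of more than 1 log2 unit exceeded the range in either group, and the rise was 1.82 (SE 0.33, limma adjusted p = 0.00504), or 3.53-fold. At 6 h the difference was 0.93 (SE 0.33, limma adjusted p = 0.24) in H1975 and 1.19 (SE 0.33, limma adjusted p = 0.214) in A549. In A549 at 6 h the levels were -4.13, -4.53 and -4.61 with PBS and -2.96, -3.27 and -3.45 with Pirfenidone, which did not overlap. Without the replicate 3 pair at 24 h the A549 6 h difference was called, at the same 1.19 with a limma adjusted p of 0.00956. At 24 h in A549 ALDH1L2 had the widest spread of the 13 probes, -3.79, -4.04 and -2.60 with PBS and -3.30, -3.08 and -4.29 with Pirfenidone, and its difference went from -0.08 (SE 0.33) to 0.72 (SE 0.26, limma adjusted p = 0.401) without that pair.

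MTHFD2, a dehydrogenase and cyclohydrolase of the same compartment (chr2:74441985-74442044, hg19), came closest to a call in A549. At 6 h it was 2.90, 2.64 and 2.69 with PBS and 3.66, 3.73 and 3.66 with Pirfenidone. The 3 Pirfenidone arrays lay within 0.1 log2 units of each other, above every PBS array, and the difference of 0.94 (SE 0.17, limma adjusted p = 0.0184) fell just short of 2-fold. In H1975 the difference was 0.61 (SE 0.17, limma adjusted p = 0.0987) at 6 h and 0.77 (SE 0.17, limma adjusted p = 0.0142) at 24 h. The H1975 levels at 24 h were 1.58, 1.80 and 2.02 with PBS and 2.37, 2.43 and 2.93 with Pirfenidone. With run as a block, the 6 h difference in H1975 passed the adjusted p, at 0.0119 by limma. In A549 at 24 h MTHFD2 was -0.08 (SE 0.17) apart, with overlapping arrays, and the replicate 3 pair moved this little, to -0.02.

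MTHFD1L, which makes formate from formyl-folate in mitochondria, differed by at most 0.24 in size between Pirfenidone and PBS on any of its 3 probes in any comparison. The smallest of the 12 limma adjusted p-values was 0.283, at H1975 24 h on probe 1. Of its 4 promoter windows, 3 that overlap hold the core printed above, at the same site. Its largest difference was the smallest such value among the 7 genes with a window. Whether the core has any bearing on the response was not tested.

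ASNS (chr7:97481461-97481520, hg19) gave the lowest adjusted p of the members in H1975. At 24 h its level was 3.77, 3.91 and 4.18 with PBS and 5.57, 5.71 and 6.24 with Pirfenidone. All 3 Pirfenidone arrays lay more than 1 log2 unit above the highest PBS array, and the rise was 1.89 (SE 0.21, limma adjusted p = 5.72e-05), or 3.7-fold. At 6 h ASNS was 4.21, 3.99 and 4.01 with PBS and 5.07, 5.20 and 5.45 with Pirfenidone, and the rise was 1.17 (SE 0.21, limma adjusted p = 0.00582), or 2.25-fold. No array left out ended either call, but normexp background correction and a fit of only the arrays compared ended the one at 6 h. In A549 at 6 h the levels were 4.67, 4.41 and 4.52 with PBS and 5.46, 5.28 and 5.41 with Pirfenidone, a difference of 0.85 (SE 0.21, limma adjusted p = 0.107). That difference passed the adjusted p with run as a block, at 0.0292 by limma, and without the replicate 3 pair at 24 h, at 0.0154. In A549 at 24 h ASNS was 5.05, 4.79 and 5.77 with PBS and 5.17, 5.17 and 4.90 with Pirfenidone. The PBS replicate 3 array was the highest of the 6, and the difference was -0.13 (SE 0.21), or 0.25 (SE 0.19, limma adjusted p = 0.825) without that pair.

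Counting arrays instead of sizes, 8 of 13 probes lay higher on all 3 Pirfenidone arrays than on all 3 PBS arrays in A549 at 6 h, against 7.03% of all probes. The count was 8 of 13 in H1975 at 6 h, against 10.6%, 6 of 13 in H1975 at 24 h, against 16.3%, and 0 of 13 in A549 at 24 h, against 0.571%. PHGDH, PSAT1, PSPH, MTHFD2, ALDH1L2 and ASNS were in the first 3 of these counts. MTHFD1L probes 1 and 2 made up the rest at 6 h in both lines. Probes lower on all Pirfenidone arrays numbered 1 in A549 at 6 h (8.24% of all probes) and 1 in H1975 at 6 h (7.16%), MTHFD1 each time, and 3 in H1975 at 24 h (15.6%), the SHMT1 pair and MTHFD1.

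Within runs, PHGDH, PSAT1, PSPH, SHMT2, MTHFD2, MTHFD1L probe 1, ALDH1L2 and ASNS were higher with Pirfenidone in every run of H1975 and of A549 at 6 h. MTHFD1 and SHMT1 probe 1 were lower in each of these runs. How many of all probes kept 1 sign in these runs was not counted, so this is a description. Some of the values were near 0, such as -0.045, -0.011 and -0.047 for SHMT1 probe 1 in A549 at 6 h (runs 1, 2 and 3). In H1975 at 24 h ASNS differed by 2.06, 1.80 and 1.80 in runs 1, 3 and 4, and PHGDH by 2.05, 1.89 and 1.87. In A549 at 6 h ASNS differed by 0.89, 0.78 and 0.87 in runs 1, 2 and 3, and ALDH1L2 by 1.16, 1.17 and 1.25. The size of some differences varied between runs. In H1975 at 24 h run 1 was the farthest from 0 for SHMT1, at -1.35 against -0.49 and -0.63 in runs 3 and 4 on probe 2, and for PSAT1, at 1.67 against 1.15 and 1.09. PSPH in H1975 at 6 h differed by 0.22, 0.61 and 0.42. In A549 at 24 h MTHFD2 was below 0 in run 1 (-0.22) and also in run 2 (-0.13). In run 1 of A549 at 24 h, but not in runs 2 and 3, the sign turned for PHGDH, PSAT1, PSPH, ALDH1L2 and ASNS. There PHGDH differed by -1.03 against 0.29 and 0.73 in runs 2 and 3, ALDH1L2 by -1.70 against 0.49 and 0.96, and ASNS by -0.88 against 0.12 and 0.38. SHMT1 went opposite to these genes in that run too, with probe 1 at 0.65 and probe 2 at 0.72. Why this pair stands apart was not tested.

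**Figure D4:**
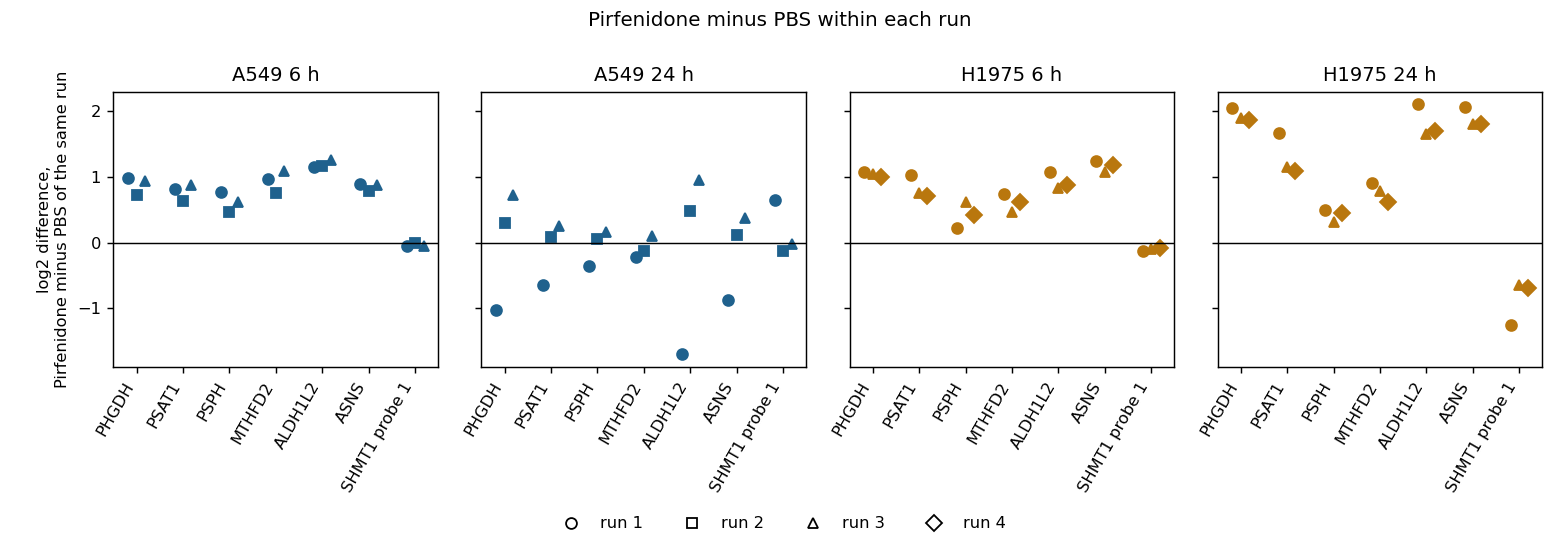
Log2 difference between the Pirfenidone and PBS arrays of the same run for 7 probes (horizontal axis), in a panel for each line and time, with the run as the symbol. In H1975 and in A549 at 6 h all probes shown but SHMT1 probe 1 lie above 0 in every run, and SHMT1 probe 1 lies below 0. In A549 at 24 h run 1 lies at -1.03 for PHGDH and -1.70 for ALDH1L2 while runs 2 and 3 are above 0 for both.

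The difference between the lines in the response was tested directly as an interaction. At 6 h no member was called, against 0.0336% of all probes, and none had an unadjusted p under 0.05, against 2.63%. The widest interval there was that of ALDH1L2, from -1.25 to 0.72. At 24 h 3 of 13 were called, against 0.193% of all probes (called higher, 0.168%). The response in H1975 exceeded that in A549 by 2.02 (SE 0.29, limma adjusted p = 0.00378) for ASNS, by 1.94 (SE 0.31, limma adjusted p = 0.0089) for PHGDH and by 1.40 (SE 0.23, limma adjusted p = 0.00956) for PSAT1. ALDH1L2 was close to them in size, at 1.90, but had an SE of 0.47 and a limma adjusted p of 0.0993. Without the replicate 3 pair of A549 at 24 h the differences were 1.64 (limma adjusted p = 0.0156) for ASNS and 1.42 (limma adjusted p = 0.0162) for PHGDH, both still called, and 1.13 for PSAT1, whose limma adjusted p rose to 0.0592. For ALDH1L2 the value without the pair was 1.098 (limma adjusted p = 0.357). A fit of only the 12 arrays at 24 h called none of the 3. SHMT1 probe 1 had an interaction of -1.03 (SE 0.24, limma adjusted p = 0.0758), called only with run as a block, where the limma adjusted p was 0.045, and it was -0.79 (limma adjusted p = 0.362) without the pair.

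The difference between 24 h and 6 h in the response was tested in the same way. No member was called in A549, against 0.0294% of all probes, or in H1975, against 0.0042%. In A549 6 members had an unadjusted p under 0.05, against 3.04% of all probes, each with a smaller response at 24 h, from -0.67 for PSPH to -1.28 for ALDH1L2. Without the replicate 3 pair 4 of the 6 had one, PSPH at -0.51, ASNS at -0.60, PSAT1 at -0.61 and MTHFD2 at -0.96. PHGDH then went from -0.89 to -0.37 and ALDH1L2 to -0.47. In H1975 4 did, against 5.86%. They were PHGDH at 0.89 and ASNS at 0.72, whose responses were larger at 24 h, and SHMT1 probes 1 and 2 at -0.76 and -0.88.

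Without the drug, the lines differed by more than 2-fold in 1 member probe at 6 h and in 5 at 24 h, of which 4 were lower in H1975. With 32.4% and 32.9% of all probes called, counts of 1 and 5 of 13 were below and near the background. By the adjusted p alone 8 and 10 of 13 passed, against 58.6% and 59.2%. At 24 h H1975 was lower than A549 in PSAT1 (-1.49, SE 0.16, limma adjusted p = 1.72e-07), in ASNS (-1.25, SE 0.21), in PHGDH (-1.07, SE 0.22) and in MTHFD2 (-1.01, SE 0.17). At 6 h the same probes differed by -0.79, -0.46, -0.39 and -0.60. With run as a block PHGDH (-0.99) and MTHFD2 (-0.94) fell under the 2-fold limit. The A549 PBS array of replicate 3 carried part of the 24 h values, and without the replicate 3 pair ASNS was -0.97, PHGDH -0.77 and MTHFD2 -0.93, under the 2-fold limit, while PSAT1 at -1.29 was still called. PSPH, MTHFD1 and SHMT2 were higher in H1975 at both times, all past the adjusted p and under 2-fold. At 6 h and 24 h PSPH was higher by 0.80 and 0.67, MTHFD1 by 0.63 and 0.73 and SHMT2 by 0.61 and 0.51. The 24 h value of SHMT2 (limma adjusted p = 0.048) did not pass without the replicate 3 pair (limma adjusted p = 0.0814).

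MTHFD1L was the gene whose probes disagreed. Its 3 probes of 60 bases, shown because the direction between the lines depends on which is read, lie at chr6:151413640-151413699 (probe 1), within chr6:151355724-151358147 (probe 2) and within chr6:151206858-151209024 (probe 3) on hg19, the last 2 with their bases on both sides of an interval longer than the probe.
MTHFD1L probe 1: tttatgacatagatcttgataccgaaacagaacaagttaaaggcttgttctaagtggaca
MTHFD1L probe 2: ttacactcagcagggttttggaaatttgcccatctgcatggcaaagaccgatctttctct
MTHFD1L probe 3: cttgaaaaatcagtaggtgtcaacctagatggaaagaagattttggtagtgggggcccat
In PBS at 6 h probe 3 was -1.06, -1.13 and -0.63 in A549 and 0.54, 0.20 and 0.16 in H1975. Probe 1 on the same arrays was 0.30, 0.28 and 0.45 in A549 and -0.13, -0.31 and -0.32 in H1975. The arrays of the lines did not overlap on either probe, in opposite orders. H1975 minus A549 was 1.24 (SE 0.20, limma adjusted p = 2.51e-05) on probe 3, -0.60 (SE 0.11, limma adjusted p = 0.000127) on probe 1 and -0.61 (SE 0.09, limma adjusted p = 9.06e-06) on probe 2. At 24 h the values were 1.17, -0.73 and -0.68. Probe 3 was called at both times. The mean of the 3 probes, in which opposite directions cancel, differed by 0.01 at 6 h and -0.08 at 24 h. It was called at neither time, which does not show that the lines are alike.

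**Figure D5:**
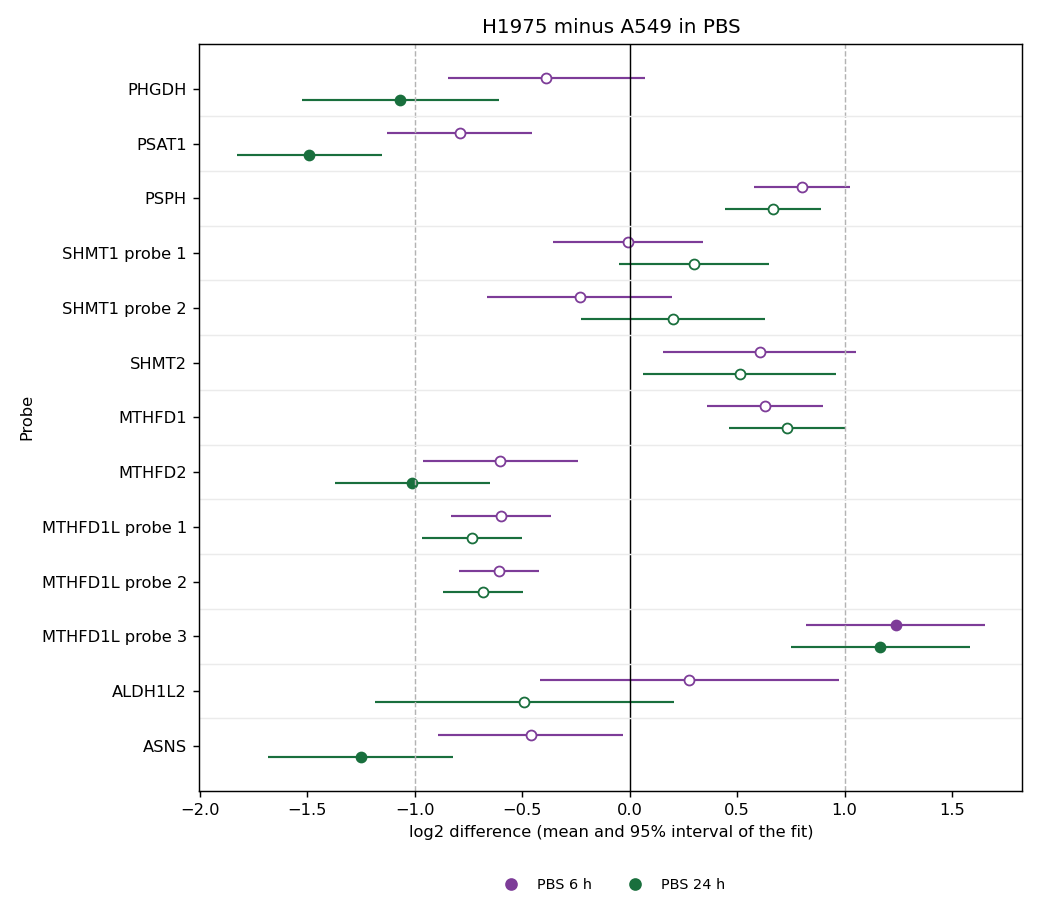
Log2 difference H1975 minus A549 in PBS for the 13 probes at 6 h and 24 h, with the 95% interval of the limma model over 3 arrays per group. Filled points were called. MTHFD1L probe 3 lies at 1.24 and 1.17 while probes 1 and 2 lie between -0.60 and -0.73.

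In PBS alone no member was called between 24 h and 6 h in A549, against 0.109% of all probes, or in H1975, against 0.315%. At an unadjusted p under 0.05, 6 members passed in A549, against 8.49%, and 3 in H1975, against 10.6%. PHGDH in A549 showed the most, at 0.96 (SE 0.22, limma adjusted p = 0.113), with all PBS arrays at 24 h above all those at 6 h. Without the replicate 3 pair it was 0.66. ASNS in A549 differed by 0.67 (SE 0.21, limma adjusted p = 0.296) with the pair and by 0.39 without it.

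For the other genes of one-carbon metabolism, the shares of all probes called are the background. They were 0.176% and 0.0126% in A549 and 0.491% and 1.89% in H1975 at 6 h and 24 h. Among 17 further folate enzymes and carriers (the brightest probe of each), 1 was called in a drug comparison. TYMS, thymidylate synthase, fell in H1975 at 24 h, at -1.10 (SE 0.21, limma adjusted p = 0.00752), in the comparison where SHMT1, which works with it in thymidylate synthesis, was at -0.86. ALDH1L1, the cytosolic relative of ALDH1L2, chosen after its value was seen, was at 1.17 (SE 0.44) there with a limma adjusted p of 0.123. The median of the 17 was -0.09 in H1975 at 24 h, against 0.03 over all genes. Of 17 tested genes that use serine, glycine or methionine, CTH, which makes cysteine from cystathionine, was called higher in H1975 at 6 h (1.40, SE 0.30, limma adjusted p = 0.0236) and at 24 h (1.28, SE 0.30, limma adjusted p = 0.0187). CBS, which makes cystathionine from serine and homocysteine and is named after its value was seen, was at 0.97 (SE 0.17, limma adjusted p = 0.00398) in H1975 at 24 h, just under the 2-fold limit. MAT2A, which makes S-adenosylmethionine, was called lower in H1975 at 6 h (-1.29, SE 0.30, limma adjusted p = 0.0413), and it was -1.18 in A549 at 6 h with a limma adjusted p of 0.152. The medians of this list were -0.01 and -0.05 in A549 and 0.10 and -0.08 in H1975 at 6 h and 24 h. None of the 6 enzymes of purine synthesis was called. Their medians were -0.12 and 0.06 in A549 and -0.11 and -0.16 in H1975, against -0.01, -0.02, 0.05 and 0.03 over all genes. All 6 were below 0 in both lines at 6 h and in H1975 at 24 h, but none passed the adjusted p alone. The share of all genes below 0 was not counted. Of 10 tested enzymes that make other amino acids, GPT2, an alanine aminotransferase, was called higher in A549 at 6 h (1.12, SE 0.14, limma adjusted p = 0.000568) and in H1975 at 24 h (1.05, SE 0.14, limma adjusted p = 0.00033). The medians of these 10 were 0.0036 and 0.0064 in A549 and 0.08 and 0.04 in H1975.

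ATF4 and 12 of its other known targets stand beside the members as a list, also chosen with earlier results of these data known. Called genes of the 13 were 3 at 6 h and 0 at 24 h in A549, and 6 and 9 in H1975, all higher. The shares of all probes called were 0.176%, 0.0126%, 0.491% and 1.89% in that order. The list medians were 1.22, -0.07, 1.0003 and 1.29 in that order, against -0.01, -0.02, 0.05 and 0.03 over all genes. ATF4 itself differed by 0.38 (SE 0.11, limma adjusted p = 0.275) and -0.07 in A549, and by 0.75 (SE 0.11, limma adjusted p = 0.00165) and 0.69 (SE 0.11, limma adjusted p = 0.00262) in H1975. CHAC1, which breaks down glutathione, differed by 2.29 (limma adjusted p = 0.00619), -0.31, 3.20 (limma adjusted p = 0.000139) and 2.77 (limma adjusted p = 0.000378). DDIT3, a stress transcription factor, differed by 2.19, -0.13, 2.08 and 1.71 and was called in all but A549 at 24 h. DDIT4, an inhibitor of mTORC1 signalling, differed by 2.30 and 1.67 in H1975, SESN2, a leucine sensor, by 1.86 and 1.79, and NUPR1, a stress-induced nuclear protein, by 1.70 and 1.85, all called. These values come from the same arrays as those of the members.

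Across the 12 arrays of each line, ASNS levels moved with those of PHGDH (Pearson r of 0.90 in A549 and 0.95 in H1975), PSAT1 (0.96 and 0.95) and ALDH1L2 (0.94 and 0.88), and opposite to those of MTHFD1 (-0.78 and -0.76). For SHMT2 r was 0.17 and 0.49. These arrays share treatments, times and runs, and the values are descriptions. Outside the members, the genes whose levels were most like ASNS over all 24 arrays, among 18180 genes, were FLJ43315 (r of 0.96), LURAP1L (0.93) and ENST00000433309 (0.92). The array design describes the first as an asparagine synthetase pseudogene and the third as an ATF4 pseudogene. Those most like PHGDH were FLJ43315 (0.91), SEMA4F (0.90) and FAM149B1 (0.90), and those most like MTHFD2 were GLIS3 (0.95), SLC7A1, a cationic amino acid transporter (0.94), and LRRC37B (0.89).

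Probes for pseudogenes of the members bear on how far a signal belongs to 1 gene. The FLJ43315 probe was called higher in H1975 at 6 h (1.19, SE 0.22, limma adjusted p = 0.00746) and at 24 h (2.08, SE 0.22, limma adjusted p = 3.66e-05), beside 1.17 and 1.89 for ASNS. Of 3 probes for PSAT1 pseudogenes 2 were tested, and both were called higher in H1975 at 24 h, at 1.55 (SE 0.26, limma adjusted p = 0.00334) for ENST00000439132 and at 1.45 (SE 0.26, limma adjusted p = 0.00499) for the other, beside 1.30 for PSAT1. How much of these signals is transcript of the parent gene was not tested, and the same uncertainty holds for ASNS and PSAT1. The MTHFD2P1 probe was well above background on 0 of 24 arrays. These probes were chosen after the values of the members had been seen.

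The epithelial markers EPCAM, CDH1, KRT7, KRT8, KRT18 and KRT19 were well above background on 24 of 24 arrays, and so were VIM, COL1A1, CD68 and CDH5 from the rest of the list. PTPRC was on 23, COL1A2, PDGFRB and PECAM1 on 12 each, CD3E on 1 and COL3A1 on 0, so detection alone does not mark a cell type here. None of the 14 tested marker genes of epithelial, fibroblast, leukocyte and endothelial cells was called in a drug comparison. On each array 62.7% to 69.5% of probes stood well above background, and the number of arrays limits the precision of each value.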

How the data were processed

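Total RNA of 24 samples (8 groups, 3 arrays each) had been labelled with Cy3 and hybridised to Agilent one-colour arrays. Per the file headers, Agilent Feature Extraction 11.5.1.1 gave the deposited intensity and quality flags for each spot. The authors also deposited a table of log2 values, each probe centred on its median over the arrays. It was used as an alternative, since differences between arrays in it and in the scanner values correlated at 0.9998.

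From the intensity, log2 of the processed signal minus each array's 75th percentile over 43118 non-control spots was taken. Spots flagged as outliers were dropped before the spots of each probe were averaged. Probes well above background on all 3 arrays of a group or more (23827 of 34127) were fitted with limma 3.58.1 in R 4.3.3, with 8 group means and 16 residual degrees of freedom, and p-values were adjusted by the Benjamini-Hochberg method in each of 12 comparisons. The study's methods name a Westfall-Young correction, which 3 against 3 arrays cannot pass. The fit was tested on simulated data.

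The members, lists and tests were chosen with earlier results of these data known. All member probes are named. List genes called under the drug are named, at most 5 a list by size, with the 3 genes most correlated with ASNS, PHGDH and MTHFD2. Probe positions are those of the array design on hg19. Exons and other annotation of that build, and proteins, were not used here. Promoters are RefSeq sequences on GRCh38.p14. Alternatives changed the background correction, normalization, filter, block, fit, adjustment and arrays used.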

Additional observations from a re-analysis of the deposited data

Results flagged for a closer look

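The response to Pirfenidone at 24 h differed between the cell lines by a direct test in 3 member genes. H1975 minus A549 was 2.02 for ASNS (limma adjusted p = 0.00378), 1.94 for PHGDH (limma adjusted p = 0.0089) and 1.40 for PSAT1 (limma adjusted p = 0.00956), on the log2 scale. The Pirfenidone differences behind these were 1.89, 1.93 and 1.30 in H1975, higher in 3 of 3 runs for each gene, and -0.13, -0.0034 and -0.10 in A549, higher in 2 of 3 runs. The third A549 run is the replicate 3 pair, and without it the differences between the lines were 1.64, 1.42 and 1.13, the last no longer called (limma adjusted p = 0.0592). A fit of only the 12 arrays at 24 h called none of the 3. At 6 h the same genes gave 0.32, 0.16 and 0.05, and none was called.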

How the results depend on the processing

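Every called member probe kept its direction in all settings that gave a value. The 15 calls, each a probe in a comparison, had 567 values across settings. Of these 521 were still called, 46 were not and 0 reversed. Many of these values could not reverse. Leaving out an array outside a comparison leaves its difference as it was, and so does Holm adjustment. Dropping the fold limit cannot end a call. The counts are therefore no measure of how firm the calls are. In H1975 at 24 h the 4 calls became 8 without a fold limit and 3 with Holm adjustment (ALDH1L2 lost). They became 0 with an ordinary t-test paired by run after Benjamini-Hochberg, and stayed at 4 whichever array was left out. That t-test is not the moderated test named for the study's arrays. A figure legend of the study does give a paired t-test for selected genes of its transcriptome data. The t-test paired by run used here rests on 3 differences per probe and so has few degrees of freedom. In H1975 at 6 h the 2 calls became 0 with normexp background correction, with only the arrays compared and with Holm adjustment. They also became 0 with the paired t-test after Benjamini-Hochberg, and 1 to 2 when an array was left out. In A549 at 6 h the count of 0 became 3 without a fold limit, 1 with quantile normalization and 1 with the paired t-test unadjusted. It became 0 to 1 when an array was left out. Without both A549 arrays of replicate 3 at 24 h it became 1, with or without run as a block. That last pair of settings was chosen after seeing the data. Between the lines in PBS at 6 h the count of 1 became 0 with Holm adjustment, 8 without a fold limit and 0 with each gene's probes averaged. At 24 h the count of 5 became 3 with normexp, 3 with run as a block, 1 with Holm adjustment, 10 without a fold limit, 2 to 5 when an array was left out (2 without A549 PBS replicate 3) and 2 without both A549 arrays of replicate 3, with or without run as a block. In the interaction of line and drug at 24 h the 3 calls became 0 with only the arrays compared and 1 with Holm adjustment, and in that of time and drug in A549 the 0 became 1 with slide as a block. Where the settings themselves do not show it, the cause was not tested.

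With the replicate number as a block the counts of called members were 0 and 0 in A549 and 2 and 4 in H1975 at 6 h and 24 h, as without it, and the block changed no other count. The numbers do not pair the samples in all groups, since deviations of same-numbered arrays correlated at -0.48, 0.43 and -0.68 in H1975 at 6 h, while those of the same run correlated at 0.82, 0.50 and 0.70 there. Normexp moved the median of all probes in H1975 at 6 h to 0.29. The dimmest member, ALDH1L2, had the largest SE.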
